A study of Macaca fascicularis with 28 samples.

Results

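Glycolysis, gluconeogenesis and pyruvate use were examined in macaque taste buds through 56 listed gene symbols, of which 38 were carried by a probe set named here. Each gene was read from 1 probe set, picked as the brightest on average (log2 scale) across the 28 samples among those bearing its name. The remaining 18 symbols had no probe set under that name, and the list includes PFKM, PFKFB2, PFKFB3, PFKFB4, PGK1, PGAM1, PDHA1, PDHB, GBE1, PGD and TKT (the PKM gene was present, listed also as PKM2). Of the 38 genes, 33 reached 25 intensity units in at least 4 samples of the first array set and were tested there, and 30 were tested in the second set. PFKFB1, DLD, GYS1 and GYS2 stayed under 25 units in every sample, with highest values of 23.9, 12.8, 15.6 and 7.85 units, and PKLR reached 25 units in 3 samples.

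The samples were laser-captured areas of the tongue of cynomolgus macaques (Macaca fascicularis) 2.6 to 4.5 years old. Circumvallate (CV) taste buds of the posterior tongue and the lingual epithelium without taste buds (LE) next to them came from animals 1, 3, 4 and 5, and fungiform (FG) taste buds of the anterior tongue and their adjacent LE came from animals 1 to 6. The top and the bottom fraction of CV taste buds came from animals 7 to 10, which were processed as a separate array set. Every sample pooled many sections of its animal, and RNA was hybridised to Affymetrix Rhesus Macaque arrays. The values are linear intensity units with no known number of molecules behind them. Precision was therefore judged from the number of animals and the spread between them.

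Glucose enters glycolysis by phosphorylation, is split at the aldolase step and ends as pyruvate. Pyruvate is then exchanged with lactate by lactate dehydrogenase, or used inside mitochondria. There it is turned into acetyl-CoA by the pyruvate dehydrogenase complex or carboxylated as the first step back towards glucose. The kinases of the complex switch it off and its phosphatase switches it on. Glycogen phosphorylases release stored glucose, and the pentose phosphate pathway branches off to make NADPH and ribose. Most steps have several isoenzymes whose genes differ in tissue use: LDHA and LDHB encode the muscle-type and heart-type subunits of lactate dehydrogenase, PYGL and PYGB the liver-type and brain-type glycogen phosphorylases, and ENO2 the enolase best known from neurons and neuroendocrine cells.

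The captured tissues differed in differentiated keratinocyte and taste type II cell markers in the way their labels call for. All 13 differentiated keratinocyte markers with a probe set were called lower in both kinds of taste bud than in adjacent LE, with summed intensities of 2584 to 5802 units in CV taste buds against 102071 to 116260 units in LE adjacent to CV papillae, and of 2576 to 21866 units in FG taste buds against 81140 to 112432 units in LE adjacent to FG papillae. Taste type II cell markers summed to 13353 to 18147 units in CV taste buds against 191 to 235 units in their LE, and to 13305 to 17750.2 units in FG taste buds against 173 to 324 units in theirs. Of 6 taste type III cell markers tested, 5 were called higher and 1 lower in CV taste buds, and 4 higher and none lower in FG taste buds. Of 2 taste type I cell markers tested, 1 was called higher in CV and 1 lower in FG taste buds. The type I list did not stand above LE at the FG site (51.2 to 199.8 units against 95.2 to 272 units). Every change of a glycolysis gene between taste bud and LE therefore comes with this exchange of cell types, whose part in the changes was not tested, and in bulk samples fewer cells of a type and less RNA per cell cannot be told apart. LE of animal 3 adjacent to FG papillae held skeletal muscle markers (a sum of 14836 units, against 131 to 870 units in the other LE samples of that site). LE of animal 6 adjacent to FG papillae had the least differentiated keratinocyte signal of its site (81140 units, against 103031 to 112432 units) and the most basal keratinocyte signal (4229 units, against 314 to 2521 units).

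Among the genes of glucose use, fewer were higher than lower in taste buds relative to adjacent LE. In CV taste buds 5 of 33 members were called higher than in adjacent LE and 13 lower at an adjusted p of at most 0.05. Over all 26176 tested probe sets, 17.3% were called higher and 18.0% lower, so that the share of members called higher (15.2%) lay near the background and that called lower (39.4%) above it. In FG taste buds 5 of 33 members were called higher (15.2%, background 21.1%) and 10 lower (30.3%, background 20.2%). The median member changed by -0.47 on the log2 scale in CV taste buds, against -0.08 over all tested probe sets, and by -0.34 in FG taste buds, against 0.05. Of the members, 4 were higher in both kinds of taste bud (ENO2, LDHB, PGM1 and PYGB), 9 were lower in both (PFKL, PFKP, ALDOA, ALDOC, LDHA, PDK3, PDP1, PYGL and TALDO1), none was called in opposite directions, and 13 were called in neither. The probe sets of ENO2, LDHB, PC, PDK4, PGM1 and PYGB are in a table of taste bud genes that the study selected on these samples by their ratio of taste bud to LE. PC carries that name in the array annotation as well, and the other 5 owe their name to the table, so that they entered as members through the same comparison. All 5 members called higher in each comparison are among those 6, so their direction is not independent evidence. None of the 27 members outside that table was called higher, but this was in part set by the naming. A name in the table took precedence, which kept out of the members the higher probe sets that the annotation calls GPI and PFKFB3 (5.58 and 4.26 in CV taste buds). The counts of members higher and lower therefore depend on that selection. Centring each array on its median left 4 higher and 17 lower in FG taste buds. Without animal 4 only 2 members, LDHB and PYGB, were called higher in CV taste buds, and without animal 2, 3, 4 or 5 only 3 were called higher in FG taste buds.

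**Figure D1:**
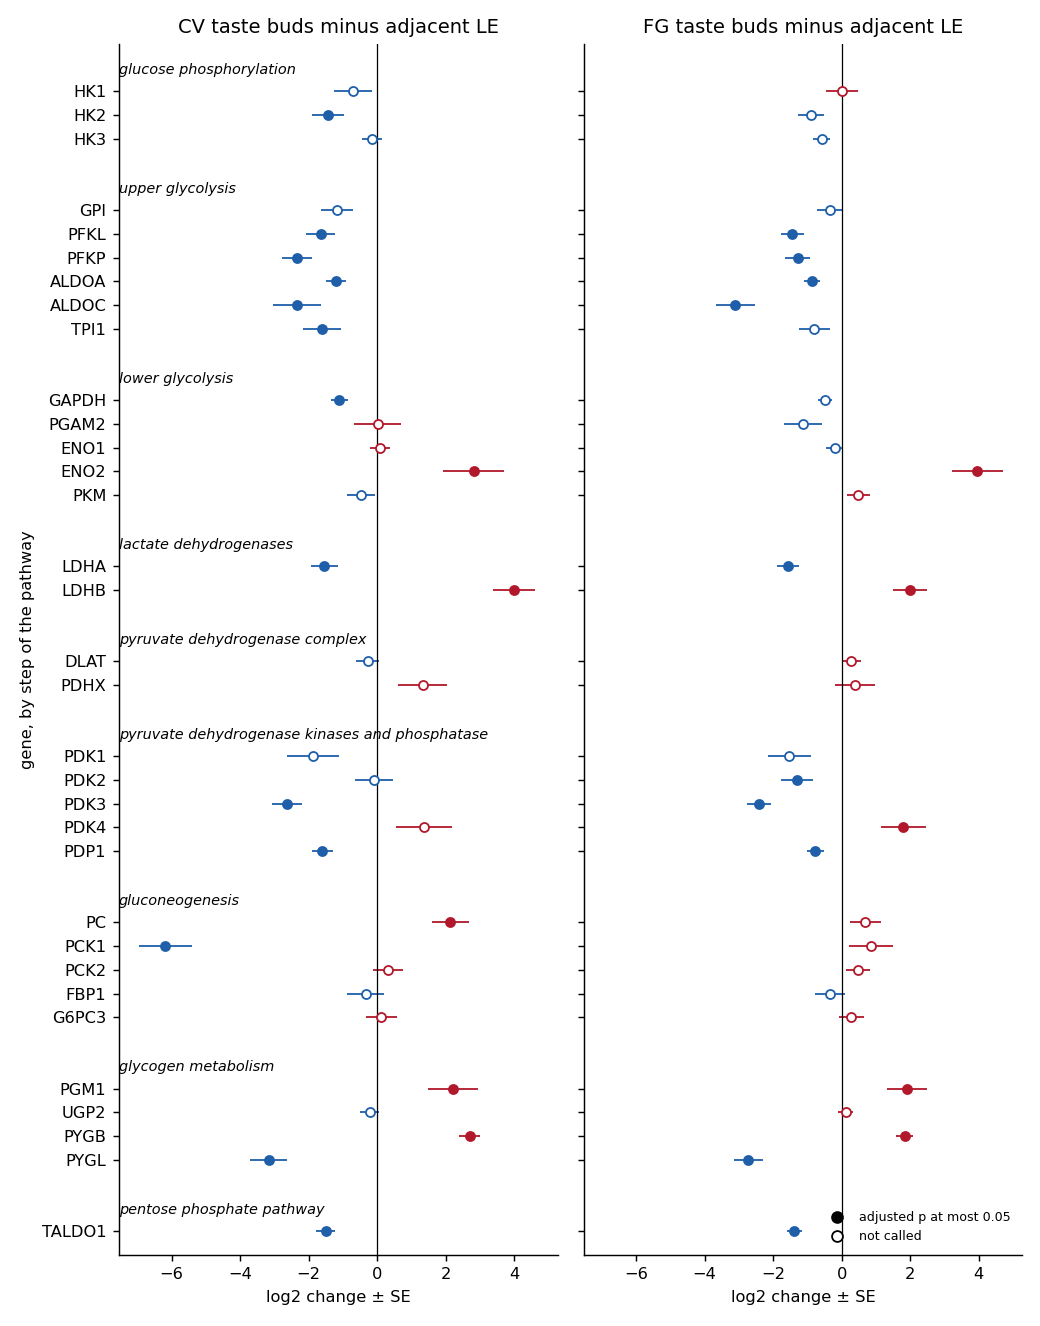
Log2 change (± SE) of the 33 tested members in CV taste buds minus adjacent LE (left, 4 animals) and in FG taste buds minus adjacent LE (right, 6 animals), grouped by step and on the same axis. Filled points passed an adjusted p of 0.05 or less; the 5 members called higher in each panel lie to the right of 0, and the 13 (CV) and 10 (FG) called lower lie to the left.

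Of the 6 upper glycolysis genes tested, 5 were called lower in CV taste buds (background 18.0%) and 4 in FG taste buds (background 20.2%), and none was called higher. PFKP encodes the platelet-type subunit of phosphofructokinase, the committed step of the pathway. It read 386, 759, 155 and 243 units in CV taste buds of animals 1, 3, 4 and 5, against 1624, 1886, 1639 and 1448 units in their LE. The ranges did not overlap, and the change was -2.34 ± 0.44 on the log2 scale (SE, adjusted p = 0.00105, lower in 4 of 4 animals). FG taste buds had PFKP between 147 and 535 units with a median of 273, against 412 to 1140.2 units with a median of 665 in LE, a change of -1.29 ± 0.36 (adjusted p = 0.0116, 6 of 6 animals) with overlapping ranges.

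The liver-type phosphofructokinase subunit, PFKL, moved the same way. Its intensities were 53.9, 125, 80.7 and 55.9 units in CV taste buds against 454, 189, 199.8 and 172 units in LE, and 45.5 to 119 units (median 87.4) in FG taste buds against 168 to 362 units (median 218) in LE. Neither pair of ranges overlapped, and the changes were -1.65 ± 0.42 (adjusted p = 0.00749) in CV and -1.45 ± 0.34 (adjusted p = 0.00449) in FG taste buds. The CV call was lost when animal 1, whose LE read highest, was left out.

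Aldolase, which splits the phosphorylated hexose, was lower through both measured isoenzymes. ALDOA, the isoenzyme of muscle and most other tissues, read 2474, 4127, 3193 and 1984 units in CV taste buds against 7381, 6401, 7539.6 and 5080.2 units in LE (change -1.20 ± 0.29, adjusted p = 0.00566). Its values in FG taste buds were 1771 to 3510.2 units (median 2166), against 2598 to 6018 units (median 4193) in LE, for a change of -0.88 ± 0.24 (adjusted p = 0.00977, lower in 6 of 6 animals). The CV ranges stood apart, whereas the FG ranges overlapped and the FG call was lost without animal 4.

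ALDOC, the brain-type aldolase, showed the largest FG decrease among the members. It had 16.3 to 193 units (median 68.8) in FG taste buds against 138 to 1377 units (median 548) in LE, a change of -3.11 ± 0.57 (adjusted p = 0.000835). Animal 3, with the lowest LE value, was the exception among 6 animals. In CV taste buds ALDOC read 60.6, 112, 72.0 and 148 units, against 619, 565, 369.7 and 356 units in LE (-2.33 ± 0.70, adjusted p = 0.0192), without overlap, though this call was lost without animal 1 or animal 4. A second probe set of each aldolase gene was also called lower in both kinds of taste bud.

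TPI1, which interconverts the triose phosphates, was called lower in CV taste buds alone: 427, 259, 131 and 95.8 units against 570.4, 719, 510.2 and 568 units in LE (-1.61 ± 0.55, adjusted p = 0.0353), a call lost without animal 3, 4 or 5 and without the filter on dim probe sets. The FG taste buds read 98.7 to 486 units (median 381) against 309.9 to 980.4 units (median 559) in LE, with 3 of 6 animals lower (-0.80 ± 0.45, adjusted p = 0.169, although centred arrays made it a call). The CV and FG changes were not shown to differ (interaction -0.81 ± 0.71, adjusted p = 0.638), and the second TPI1 probe set was called lower in FG (-1.57) and not in CV taste buds (-0.15). GPI, which makes fructose 6-phosphate, was not called (CV change -1.17 ± 0.47, adjusted p = 0.0662).

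Of the 3 hexokinases, which trap glucose in the cell, 1 was called lower in CV (background 18.0%) and none in FG taste buds (background 20.2%). HK2, the insulin-responsive form of muscle and fat, read 126, 312, 152 and 296 units in CV taste buds against 326, 564, 388 and 1349 units in LE, a change of -1.44 ± 0.46 (adjusted p = 0.0262, 4 of 4 animals). The call was lost without animal 3, 4 or 5, and when LE of both sites was pooled as the comparison. The HK2 values of FG taste buds, 93.5 to 221 units (median 131), lay within those of LE, 85.2 to 572 units (median 265). HK1, the housekeeping form, was not called in either comparison on the probe set used, while 1 of its 3 other probe sets was lower in FG taste buds (-0.80 ± 0.24, adjusted p = 0.0176), and HK3 never exceeded 32.3 units.

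**Figure D2:**
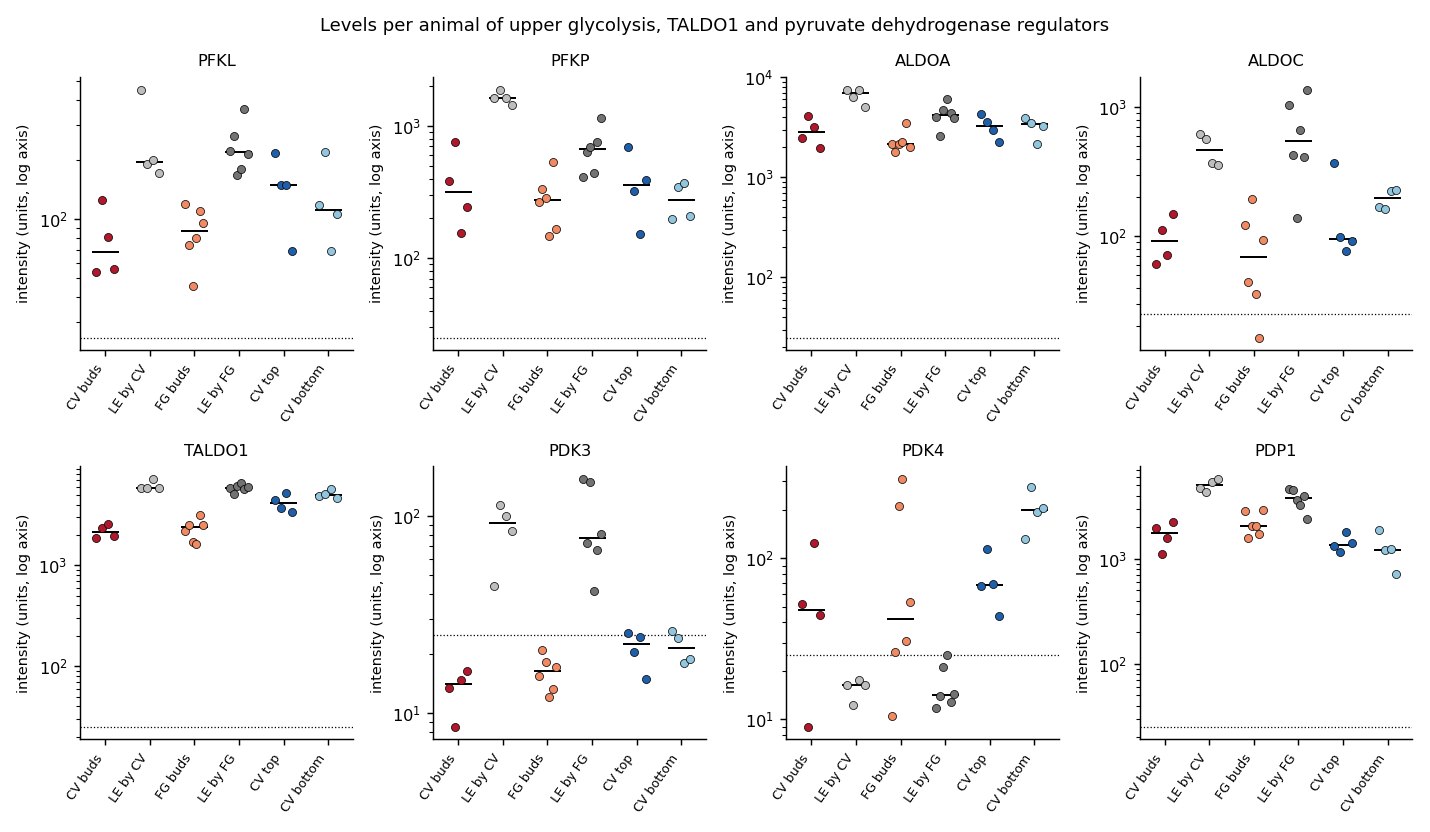
Intensity (log axis) of 8 members in each animal, by tissue: CV taste buds, LE adjacent to CV, FG taste buds, LE adjacent to FG, and CV top and bottom fractions; black bars are medians and the dotted line is 25 units. PFKL, PFKP, ALDOA, ALDOC, TALDO1, PDK3 and PDP1 were called lower in both kinds of taste bud than in LE, and PDK4 was called higher in FG taste buds.

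Of 5 lower glycolysis genes tested, 1 was called lower and 1 higher in CV taste buds (background 18.0% and 17.3%), and 1 higher in FG taste buds (background 21.1%). GAPDH, often used as a loading control, read 275, 545, 379.7 and 392 units in CV taste buds against 843, 1085, 766 and 676 units in LE, with no overlap (-1.10 ± 0.25, adjusted p = 0.00355). The FG taste buds read 483 to 763 units (median 579), against 621 to 1470.1 units (median 812) in LE, a change of -0.49 ± 0.20 that was not called (adjusted p = 0.0643) although all 6 animals were lower, and that became a call once arrays were centred. On the probe sets used, ENO1, the ubiquitous enolase, changed by 0.09 ± 0.29 in CV and -0.21 ± 0.24 in FG taste buds, and PKM, the pyruvate kinase outside liver and red cells, by -0.47 ± 0.40 and 0.48 ± 0.33. None of these was called. A dimmer ENO1 probe set was called lower in CV taste buds (-2.15 ± 0.54, adjusted p = 0.00683) and not in FG taste buds (-0.68 ± 0.44, adjusted p = 0.231). A further one was called in neither (-0.62 ± 0.34 and -0.57 ± 0.28). PGAM2, the muscle phosphoglycerate mutase, lay between 24.7 and 81.1 units in 27 of 28 samples and at 620.4 units in LE of animal 3 adjacent to FG papillae, the sample with the skeletal muscle markers. Its change in FG taste buds was -1.13 with that sample and -0.45 without it, called in neither case.

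ENO2 was read by probe sets that did not move together. The brighter one read 2779, 6282, 5096 and 4550.1 units in CV taste buds against 547, 696, 810.4 and 531 units in LE (2.82 ± 0.90, adjusted p = 0.0249), a call lost without animal 1, 3 or 4. The FG taste buds read 3526 to 5832 units (median 5254) against 11.4 to 1589 units (median 501) in LE (3.96 ± 0.73, adjusted p = 0.000857), and neither pair of ranges overlapped. The other ENO2 probe set, named by the array annotation, had 560.2 to 1093 units in CV taste buds against 1939 to 3095 units in LE, a change of -1.40 ± 0.39 (adjusted p = 0.0133). Its FG change was -0.37 ± 0.32 (adjusted p = 0.377), which was not called. The direction of ENO2 thus depends on which probe set stands for it.

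LDHA was lower in taste buds. It read 952, 2751, 1962 and 1061 units in CV taste buds against 5695, 4981, 3399.5 and 4081 units in LE (-1.54 ± 0.40, adjusted p = 0.00861). Its FG taste bud values were 1042 to 2201 units (median 1374) against 2461 to 7709.6 units (median 4042) in LE (-1.57 ± 0.33, adjusted p = 0.00203). Every taste bud sample lay below every LE sample of its site, and the CV call was lost only without animal 1 among the alternatives fitted with limma.

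LDHB, whose probe set entered through the table selected for taste bud signal, was higher in every animal, the direction selected for. It read 1414, 1576, 1773 and 1477 units in CV taste buds, against 21.4, 195, 208 and 105 units in LE, a change of 3.99 ± 0.61 (adjusted p = 0.000213). FG taste buds read 533 to 1326 units (median 848) against 28.8 to 509 units (median 337) in LE, a change of 2.00 ± 0.50 (adjusted p = 0.00615). The CV change of LDHB was 1.99 ± 0.79 above the FG change, which did not pass (adjusted p = 0.25). The array annotation names the LDHB probe set LOC696935, a locus that is not LDHB in name, and its design allows matches to several transcripts.

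**Figure D3:**
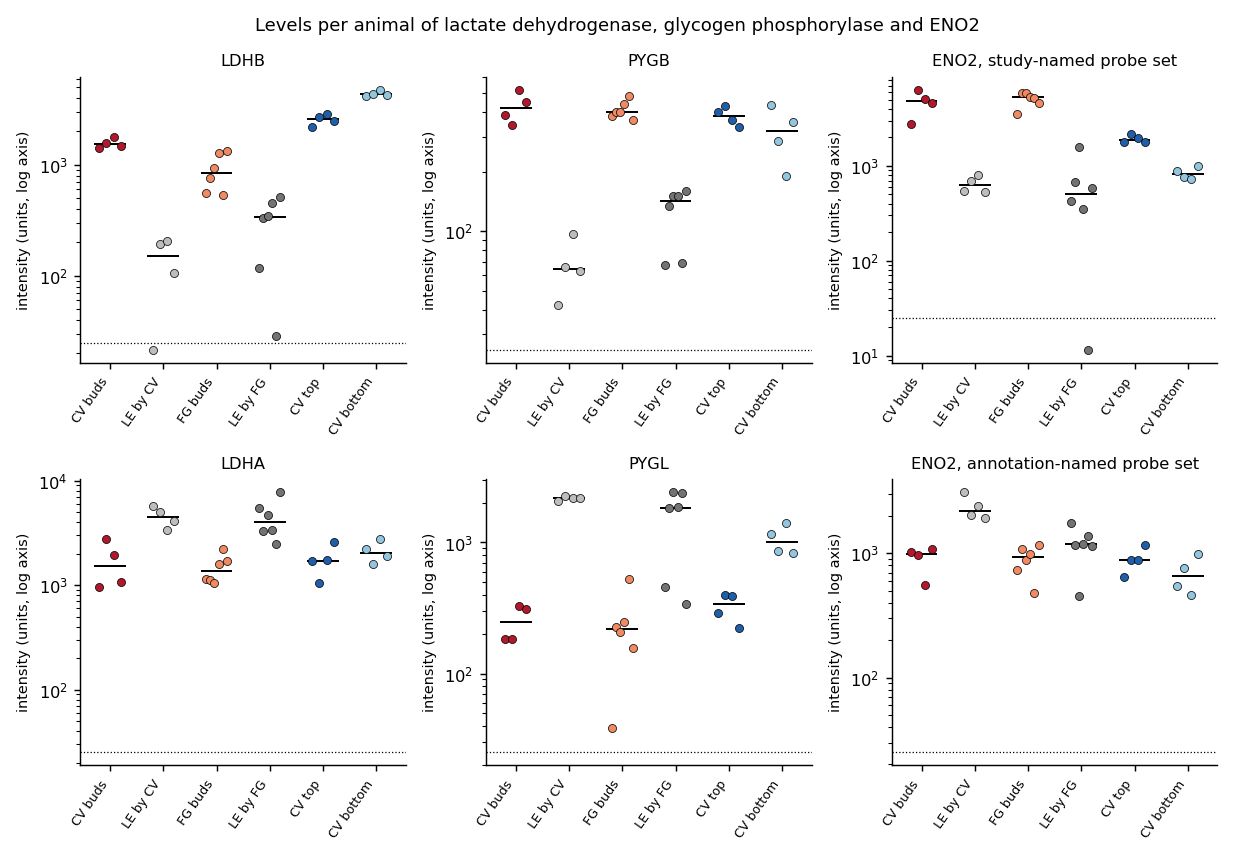
Intensity (log axis) in each animal, by tissue, for LDHB, PYGB and the study-named ENO2 probe set (upper row) and for LDHA, PYGL and the annotation-named ENO2 probe set (lower row); bars are medians and the dotted line is 25 units. LDHB and PYGB lie above their LE samples in every taste bud sample, LDHA and PYGL lie below theirs in CV tissue, and the ENO2 probe sets point in opposite directions in CV tissue.

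The pyruvate dehydrogenase complex was measured less completely. DLAT, the acetyltransferase core of the pyruvate dehydrogenase complex, read 393, 1288, 1265 and 851 units in CV taste buds against 662, 1138, 1269.6 and 1198 units in LE, and 850.1 to 1365 units in FG taste buds (median 1177) against 476 to 2346 units (median 912) in LE. The ranges overlapped and neither change was called (-0.27 ± 0.33 and 0.28 ± 0.27), nor was that of PDHX (1.33 ± 0.72 and 0.39 ± 0.59), which anchors the dihydrolipoamide dehydrogenase of the complex. DLD was under 25 units in every sample.

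Of the 5 regulators of the complex, 2 were called lower in CV taste buds (background 18.0%), while FG taste buds had 3 lower (background 20.2%) and PDK4 higher (background 21.1%). PDK3, a kinase that inactivates the complex, reached 25 units only in LE within the first array set: 13.5, 8.53, 14.8 and 16.3 units in CV taste buds against 44.1, 113, 99.6 and 83.4 units in LE, and 12.1 to 20.8 units (median 16.3) in FG taste buds against 41.5 to 153 units (median 76.7) in LE. With taste bud values raised to 25 units, PDK3 was at least 3.21-fold lower in CV and at least 3.39-fold lower in FG taste buds (adjusted p = 0.00039 and 0.000146). PDP1, the phosphatase that reactivates the complex, was lower as well. It read 1940.4, 1115, 1569.7 and 2215 units in CV taste buds against 4681, 4364, 5342 and 5758 units in LE (-1.60 ± 0.31, adjusted p = 0.00117), without overlap. FG taste buds had 1579 to 2890.2 units (median 2049) against 2395 to 4611 units (median 3816) in LE (-0.77 ± 0.25, adjusted p = 0.0244), lower in 5 of 6 animals. A second, dim PDP1 probe set was lower in CV taste buds (-3.28) and not called in FG taste buds (0.55).

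PDK4, the kinase induced by fasting in muscle and heart, was the one called higher. It read 10.4 to 310.2 units (median 42.0) in FG taste buds against 11.8 to 25.1 units (median 14.2) in LE, a change of 1.80 ± 0.66 (adjusted p = 0.0423). The values of animals 3 and 4, 211 and 310.2 units, stood well above the rest, and animal 1 went the other way. Skeletal muscle markers summed to 3529 and 1158 units in the FG taste buds of animals 3 and 4. They summed to 1429.8 units in animal 2 and to 131 to 173 units in animals 1, 5 and 6. The muscle sum was 14836 units in LE of animal 3 adjacent to FG papillae, a group with PDK4 at most 25.1 units. The CV bottom fractions had muscle sums of 110 to 769 units and PDK4 at 131 to 277 units. The part of muscle in the PDK4 result was not tested. In CV taste buds PDK4 read 51.8, 8.98, 125 and 44.2 units against 16.3, 12.2, 17.6 and 16.3 units (1.37 ± 0.81, adjusted p = 0.204). The PDK4 probe set owes its name to the table of taste bud genes, selected for signal in taste buds over LE. The one that the array annotation names PDK4 was too dim to be tested and read at most 35.2 units. PDK2, called lower in FG taste buds (-1.31 ± 0.46, adjusted p = 0.0337), read 13.4 to 46.8 units there against 26.8 to 238 units in LE, where animals 1 and 5 were highest, and was higher in the taste bud of animal 6. In CV tissue PDK2 read 23.3, 10.8, 20.3 and 18.9 units in taste buds and 11.5, 18.3, 15.5 and 37.1 units in LE, a change that was not called (-0.09 ± 0.56). The FG calls of PDK2, PDK4 and PDP1 were each lost under 6 or more of the 14 alternatives fitted with limma.

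Gluconeogenesis held the largest change. PCK1, the cytosolic phosphoenolpyruvate carboxykinase that commits carbon to glucose synthesis, read 16.0, 20.4, 4.80 and 14.8 units in CV taste buds of animals 1, 3, 4 and 5, against 1682, 1441, 505 and 524 units in LE adjacent to CV papillae. In FG taste buds it read 5.35 to 60.6 units (median 21.7), against 4.67 to 49.3 units (median 8.00) in LE adjacent to FG papillae. The LE samples of the CV site thus stood alone, and no other sample of the first array set exceeded 60.6 units. PCK1 was at least 35.8-fold lower in CV taste buds than in adjacent LE (log2 change -6.18 ± 0.77, adjusted p = 3.89e-05) and changed by 0.86 ± 0.63 in FG taste buds (adjusted p = 0.294). The CV call was lost when LE of both sites was pooled as the comparison.

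LE of the CV site was set against LE of the FG site to ask how posterior and anterior epithelium differ without taste buds. PCK1 was the 1 member of 33 called higher (3.03%, background 0.97%), and none was called lower (background 0.294%). It was at least 32.0-fold higher in LE adjacent to CV papillae (log2 change 6.17 ± 0.74, adjusted p = 0.0012, higher in 4 of 4 animals), where 5 of 6 LE samples of the FG site were under 25 units. Its second probe set read 243 to 956 units in LE adjacent to CV against 5.19 to 13.8 units in LE adjacent to FG papillae (6.04 ± 0.46). Among the members not called, PFKP read 1448 to 1886 units in LE adjacent to CV against 412 to 1140.2 units in LE adjacent to FG papillae (1.42 ± 0.42, adjusted p = 0.11), and 5 members in all had an unadjusted p under 0.05.

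The change from LE to taste bud differed between the CV and FG sites for PCK1 alone among the members: 1 of 33 was called lower in CV than in FG tissue (3.03%, background 0.6%) and none higher (background 0.271%). The difference was -7.04 ± 1.00 on the log2 scale (adjusted p = 0.00511), with the same sign in 4 of 4 animals, and the call was lost when animal 3 or animal 4 was left out. LYZ, counted here among both leukocyte and salivary gland markers, was also highest in LE adjacent to CV papillae. It read 2043 to 3637 units in LE adjacent to CV against 149 to 884 units in LE adjacent to FG papillae, and 115 to 245 units in CV taste buds. The salivary gland list of 4 genes with a probe set summed to 2147 to 3704 units against 194 to 941 units, nearly all of it LYZ, with LPO under 25 units in all LE samples. The leukocyte list of 5 summed to 2266 to 3961 units against 676 to 1193 units, and most of it in LE adjacent to CV papillae was LYZ as well. Of 4 leukocyte markers tested between the LE sites, 1 was called higher and none lower. In other tissues LYZ and PCK1 parted. LYZ read 21.7 to 149 units in FG taste buds, below their LE, where PCK1 was not called lower. In the fractions LYZ read 325 to 1022 units in the top against 64.2 to 201 units in the bottom. PCK1 read 25.7 to 160 units and 19.2 to 211 units there. The part of LYZ and of such cells in the PCK1 result was not tested.

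**Figure D4:**
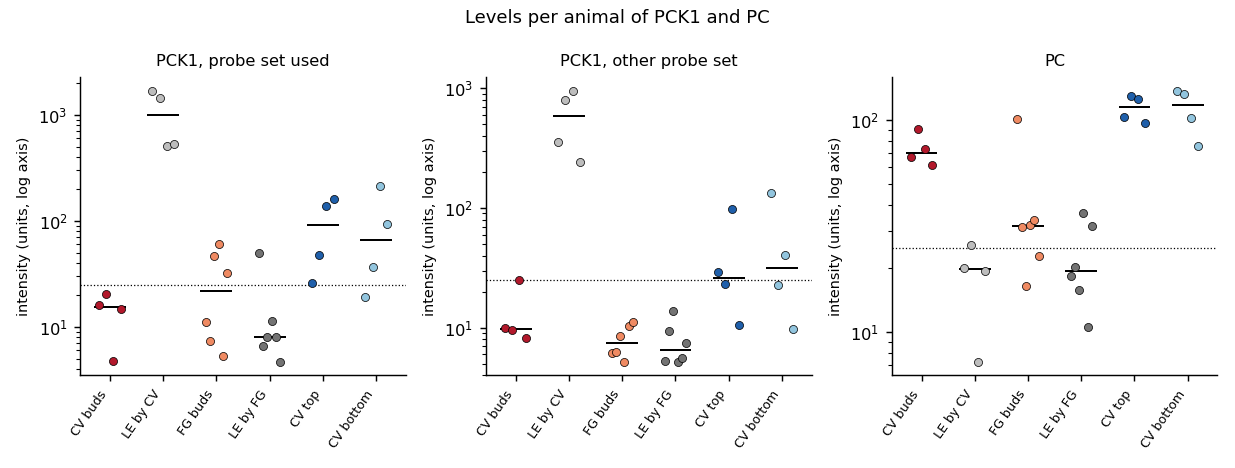
Intensity (log axis) in each animal, by tissue, for both PCK1 probe sets and for PC; bars are medians and the dotted line is 25 units. On the probe set used, the 4 LE samples adjacent to CV papillae sit between 505 and 1682 units, above every other sample, and the second probe set also has those samples above the rest.

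PC, the mitochondrial pyruvate carboxylase, was dim. It read 66.9, 91.0, 73.1 and 61.8 units in CV taste buds against 20.1, 25.8, 7.25 and 19.5 units in LE (2.14 ± 0.55, adjusted p = 0.00793), and 16.4 to 101 units (median 31.7) in FG taste buds against 10.6 to 36.4 units (median 19.4) in LE (0.69 ± 0.45, adjusted p = 0.229). The CV ranges did not overlap. PCK2, the mitochondrial counterpart of PCK1, and the phosphatases FBP1 and G6PC3 were not called in either comparison, with changes of -0.34 to 0.48 on the log2 scale. The catalytic glucose 6-phosphatase of liver, listed as G6PC, is carried by the array under its current symbol G6PC1 with 3 probe sets, which reached 25 units in at most 3 of 28 samples.

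PYGB was higher in taste buds, the direction for which its probe set was selected. It read 387, 344, 517 and 448 units in CV taste buds, against 42.1, 66.1, 97.2 and 62.7 units in LE, a change of 2.71 ± 0.31 (adjusted p = 1.63e-05). The FG taste buds read 364 to 480.4 units (median 400.1) against 67.7 to 159.8 units (median 142) in LE (1.83 ± 0.25, adjusted p = 7.47e-05). The groups did not overlap at either site. The array annotation gives the PYGB probe set the name CFAP20, a cilium gene, so that its identity rests on the table of taste bud genes.

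PYGL was lower in taste buds. It read 183, 184, 325 and 313 units in CV taste buds against 2077, 2257, 2171 and 2183 units in LE (-3.17 ± 0.53, adjusted p = 0.000441). It read 38.4 to 529.5 units (median 217) in FG taste buds against 337 to 2408 units (median 1847) in LE (-2.72 ± 0.43, adjusted p = 0.00028), where the low LE values of animals 1 and 6 (459 and 337 units) overlapped the FG taste buds while the taste bud of each animal stayed below its own LE. All 6 PYGL probe sets, some of which share a target sequence, were called lower in both comparisons.

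PGM1, phosphoglucomutase, which links glycogen with glycolysis, was higher in taste buds, the direction for which its probe set was selected. It read 204, 238, 469 and 484 units in CV taste buds against 49.0, 172, 21.4 and 128 units in LE (2.22 ± 0.73, adjusted p = 0.0289), and 109 to 342 units (median 252) in FG taste buds against 20.2 to 213 units (median 60.4) in LE (1.90 ± 0.60, adjusted p = 0.0204). Animal 1 went the other way at the FG site. The CV call was lost without animal 4 or 5 and the FG call without animal 2, 3, 4 or 5. The probe set owes its name to the table of taste bud genes. The one that the array annotation names PGM1 was too dim to be tested and read at most 27.8 units. UGP2, which makes the glucose donor for glycogen, was not called (-0.22 ± 0.27 and 0.11 ± 0.22), and both glycogen synthase genes stayed under 25 units.

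TALDO1, transaldolase of the pentose phosphate pathway, was the only member of that branch measured. It read 1866, 2362, 2575 and 1944 units in CV taste buds against 5804, 5798, 7193 and 5859.7 units in LE (-1.50 ± 0.27, adjusted p = 0.000741), and 1635 to 3175 units (median 2376) in FG taste buds against 5052 to 6579 units (median 5888) in LE (-1.39 ± 0.22, adjusted p = 0.000274). Both pairs of ranges stood clearly apart, and both calls held in all 14 alternatives fitted with limma.

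CV and FG taste buds, compared to find what differs between the posterior and anterior organs, were not told apart by these genes. None of 33 members was called higher (background 0.378%) or lower (background 0.493%) by limma, and 1 was higher and 1 lower at an unadjusted p under 0.05 (PC by 1.14 ± 0.52 and GAPDH by -0.56 ± 0.24); the paired t-test of the study's methods with Benjamini-Hochberg adjustment also called none. The changes ran between -0.86 and 1.18 on the log2 scale with SEs of 0.24 to 0.86 (median 0.44). LDHB read 1414 to 1773 units in CV taste buds and 533 to 1326 units in FG taste buds without overlap, higher in 4 of 4 animals with both, but did not pass (1.18 ± 0.58, adjusted p = 0.465).

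Within CV taste buds, the top and the bottom fraction were compared to place genes along the bud. Of 30 tested members 1 was called lower in the top fraction (3.33%, background 1.46%) and none higher (background 1.68%); at an unadjusted p under 0.05, 3 were lower and 4 higher. PYGL read 290.3, 397, 388 and 223 units in the top fraction of animals 7, 8, 9 and 10, against 1152, 862, 1415 and 835 units in the bottom fraction. The ranges did not overlap, and the change was -1.72 ± 0.27 on the log2 scale (adjusted p = 0.0363, 4 of 4 animals). All 6 PYGL probe sets changed between -2.04 and -1.17, of which 4 were called. The call was lost when any single animal was left out. Fibroblast markers moved with it: the 7 genes with a probe set summed to 672 to 1893 units in the top fraction against 4745 to 6406 units in the bottom fraction, with 5 of 6 tested markers called lower, and the basal keratinocyte markers summed to 2027 to 3156 units against 3759 to 6399 units. In whole CV taste buds, where PYGL was called lower than in LE, fibroblast markers summed to 640 to 3906 units against 870 to 2126 units. The part of fibroblasts and basal keratinocytes in the PYGL result was not tested.

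**Figure D5:**
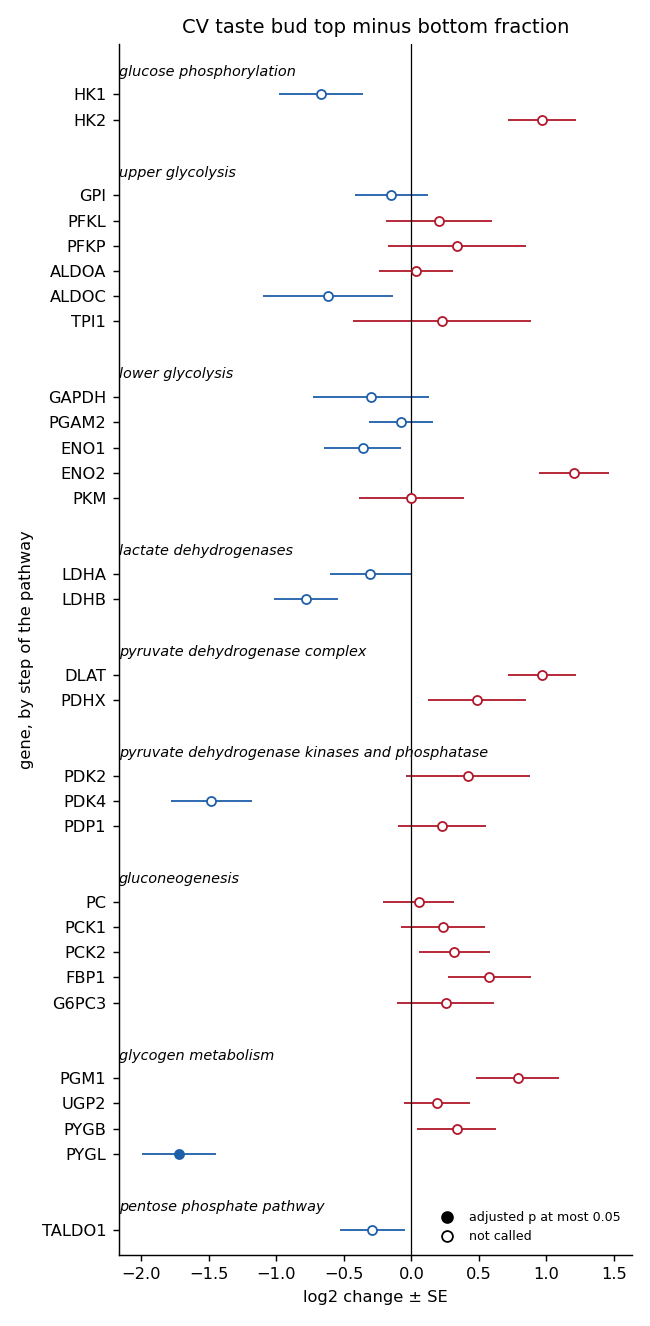
Log2 change (± SE) of the 30 members tested in CV taste bud top minus bottom fraction (4 animals), grouped by step. PYGL, at -1.72, is the only filled point, the 1 member that passed an adjusted p of 0.05 or less.

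Other members separated the fractions without passing the test over all probe sets. PDK4 read 67.7, 115, 69.0 and 43.9 units in the top against 131, 277, 192 and 204 units in the bottom fraction (-1.48 ± 0.30, adjusted p = 0.0546). ENO2 read 1801, 2156, 1989 and 1773 units in the top against 877, 759, 728 and 1002 units in the bottom fraction (1.20 ± 0.26, adjusted p = 0.0638). The annotation-named ENO2 probe set changed less (0.41 ± 0.26, adjusted p = 0.439), and its ranges overlapped (644 to 1180 units against 463 to 997 units). LDHB read 2212, 2672, 2872 and 2476 units in the top against 4209, 4313, 4714 and 4303 units in the bottom fraction (-0.78 ± 0.24, adjusted p = 0.136). On the probe sets used for these 3 genes, and for DLAT (0.97 ± 0.25, adjusted p = 0.0958) and PGM1 (0.79 ± 0.30, adjusted p = 0.218), the groups did not overlap. HK2 was higher in the top fraction of each animal (0.97 ± 0.25, adjusted p = 0.1) with overlapping ranges.

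Beside the whole taste buds and LE of the first set, the fractions lay on the taste bud side for some members and not for others. PYGB read 189.9 to 433 units in the fractions, above every LE sample. PDK3, at 14.8 to 26.0 units, lay below every LE sample, and PFKP, at 152 to 692 units, below LE adjacent to CV papillae. LDHB, at 2212 to 4714 units, lay above all whole taste buds, and PCK1 read 19.2 to 211 units, above the whole CV taste buds in all but 1 fraction sample. TALDO1, at 3341 to 5703 units, lay above every whole taste bud and below LE adjacent to CV papillae. TPI1 averaged 1146 units in the top and 942 units in the bottom fraction, against 228 units in whole CV taste buds and 592 units in their LE, and GAPDH averaged 1079 and 1284 units in top and bottom, against 398 and 842 units in whole CV taste buds and LE. The fractions were a separate array set from other animals, so that set and tissue cannot be told apart here and no test was made.

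Related genes, taken from 7 lists with 105 symbols of the surrounding pathways, were called in both directions. Of 61 tested, 16 were higher and 13 lower in CV taste buds (background 17.3% and 18.0%). In FG taste buds 19 were higher and 12 lower (background 21.1% and 20.2%). In each comparison 10 of the higher calls were read by probe sets of the table of taste bud genes, some of which bear the same name in the array annotation. Among 12 transporters of glucose, lactate and pyruvate, 4 were higher and 3 lower in each comparison. All 4 higher ones are read by probe sets of that table, so their direction was selected for. SLC2A10, a facilitative sugar transporter, changed by 5.22 ± 0.76 in CV and 3.70 ± 0.62 in FG taste buds, SLC2A9, a urate and sugar carrier, by 2.93 ± 0.52 and 3.69 ± 0.42, and SLC2A8, an intracellular glucose transporter, by 3.13 ± 0.47 and 2.21 ± 0.38. SLC5A1, the sodium-coupled glucose transporter SGLT1, was lower (-3.14 ± 0.65 and -3.13 ± 0.53). SLC2A9 was also the 1 of 57 related genes called between the fractions (background 1.68% higher), with a change of 2.09 ± 0.36 in the top fraction (adjusted p = 0.0418).

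Carriers and enzymes that move reducing equivalents across the mitochondrial membrane, and the malic enzymes, formed a list of their own. Of 10 tested, 4 were higher and 3 lower in CV taste buds (background 17.3% and 18.0%), and 5 higher and 3 lower in FG taste buds (background 21.1% and 20.2%). ME1, the cytosolic malic enzyme, which turns malate into pyruvate with NADPH, was lower (-3.25 ± 0.37 in CV and -2.27 ± 0.30 in FG taste buds), while ME3, a mitochondrial malic enzyme, was higher (3.15 ± 0.81 and 2.06 ± 0.67). SLC25A12, the mitochondrial aspartate-glutamate carrier, was higher (3.82 ± 0.70 and 2.96 ± 0.57), as was the dehydrogenase gene GPD1L (1.99 ± 0.53 and 1.59 ± 0.43). The SLC25A12 probe set owes its name to the table of taste bud genes, so its direction was selected for.

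RPIA and PGLS of the pentose phosphate pathway were both lower in CV taste buds (-2.21 ± 0.31 and -2.13 ± 0.53), and RPIA in FG taste buds (-1.40 ± 0.25). Of 12 citric acid cycle genes, 1 was higher and 1 lower in CV taste buds, and 2 were higher and 1 lower in FG taste buds, led by the succinate dehydrogenase subunit SDHA (4.00 ± 0.78 and 2.57 ± 0.63). Of 9 glycogen genes, 2 were higher and 2 lower in CV taste buds, and 3 higher and 1 lower in FG taste buds, where PPP1R3B, a glycogen-targeting subunit of protein phosphatase, changed by 4.36 ± 0.75. Of 12 regulators, 3 were higher and 2 lower in CV taste buds, and 4 higher and 3 lower in FG taste buds. For all these lists the background was 17.3% higher and 18.0% lower in CV, and 21.1% and 20.2% in FG taste buds. TIGAR, a phosphatase that lowers fructose 2,6-bisphosphate, was lower in both (-2.27 ± 0.62 and -2.49 ± 0.51), and TXNIP, a glucose-responsive inhibitor of glucose uptake, was higher in both (1.05 ± 0.33 and 2.04 ± 0.27). Of 4 tested enzymes that share a step with the members, HKDC1, a hexokinase relative, was higher in CV taste buds (3.86 ± 0.75) and MINPP1 in both (3.33 ± 0.76 and 2.85 ± 0.62). SDHA, PPP1R3B, HKDC1 and MINPP1 are read by probe sets of the table of taste bud genes, so their direction was selected for.

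Some readings depend on names and probe design. The array annotation gives the symbols GPI and PFKFB3 to probe sets that the table of taste bud genes names DPYSL3 and PLCB4. These changed by 5.58 and 4.26 on the log2 scale in CV and by 4.24 and 4.12 in FG taste buds, and they were not counted as members. Of the 38 members, 8 were read by probe sets whose design allows matches to several transcripts (among them ALDOA, GAPDH, TPI1, LDHB, TALDO1 and PYGL), so that a near-identical copy of the gene could contribute. Counted over all 52 tested probe sets that bear a member symbol, 5 were higher and 24 lower in CV taste buds, and 5 higher and 19 lower in FG taste buds.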

How the data were processed

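The members and gene lists were chosen with earlier results of these data known. The deposited values are intensities of 52024 probe sets on 28 arrays, on a linear scale, background corrected and quantile normalized by the authors with GC-RMA over all arrays together; quantile normalization forces arrays to 1 distribution and can compress or shift changes when tissues differ widely. Every column was assigned to its tissue and animal from its label. Values were log2 transformed, and limma 3.58.1 in R 4.3.3 fitted each probe set that reached 25 units in at least 4 samples of the fit (26176 in the first set, 21167 in the second), with the 4 tissue groups (top and bottom fractions alone in the second set) and the animal as a fixed block. The interaction is the CV change minus the FG change over adjacent LE. P-values are two-sided, Benjamini-Hochberg adjusted over all tested probe sets, with the animal as replicate. Folds given as "at least" compare geometric means with values under 25 raised to 25. Names come from the study's table of taste bud genes (1997 entries used), then the array annotation. Values per sample are given for members called at 2-fold or more in a taste bud comparison or called in another comparison, and for the brightest tested member of a step without one; PGAM2 was singled out after its values were seen. For groups of 6, the lowest, median and highest values are given. The fit was tested on simulated data.

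The pairing comes from the animal identity in the labels. Deviations from group means correlated on average at 0.06 to 0.12 between tissues of 1 animal and at -0.04 to -0.01 between tissues of different animals, over the 5 pairs of groups compared. Array medians of the tested log2 values were 0.22 higher in CV and 0.44 higher in FG taste buds than in their LE.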

Additional observations from a re-analysis of the deposited data

Results flagged for a closer look

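In 8 of 132 groups of values examined, 1 sample lay apart from the rest of its group by Dixon's ratio of gap to range, which chance alone would give in about 1 of 20 groups. PGAM2 read 620.4 units in LE of animal 3 adjacent to FG papillae, and ENO2 read 11.4 units in LE of animal 5 adjacent to FG papillae. In LE adjacent to CV papillae PFKL was highest in animal 1 (454 units), TALDO1 highest in animal 4 (7193 units) and DLAT lowest in animal 1 (662 units). Among FG taste buds ALDOA was highest in animal 5 (3510.2 units) and TPI1 lowest in animal 1 (98.7 units). ALDOC was highest in the top fraction of animal 7 (373 units). The PCK1 change from LE to taste bud differed between the CV and FG sites by -7.04 on the log2 scale.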

How the results depend on the processing

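Of 36 calls of members, 19 held in every alternative fitted with limma that gave them a value and 17 were lost in at least 1. PFKP, PDK3 and TALDO1 held in these at both sites, as did LDHB and PYGB except that names from the annotation alone give them no probe set. ENO2 reversed to -1.40 (CV) and -0.37 (FG) when names came from the annotation only. The members higher were then 3 in CV taste buds (GPI, PFKFB3 and PC) and 2 in FG taste buds (GPI and PFKFB3), where GPI and PFKFB3 stand for the probe sets that the study names DPYSL3 and PLCB4. Centring each array on its median raised the members called lower in FG taste buds to 17, with 4 higher. Leaving out 1 sample or animal at a time gave 2 to 5 members higher in CV and 3 to 5 in FG taste buds, 0 to 1 lower in the interaction and 0 to 0 lower in the top fraction. Without the animal as a replicate block, the CV and FG counts against LE were 5 and 5 higher and 13 and 10 lower, as with it, and 1 was higher and 2 lower in the top fraction. Between the fractions, centring gave 2 lower, an intensity trend with a robust prior 1 higher and 2 lower, and no filter 0 lower. The paired t-test of the study's methods at its unadjusted p and fold threshold called 3 members higher and 5 lower in CV tissue, 1 and 3 in FG tissue and 0 lower in the top fraction; after Benjamini-Hochberg adjustment it called 2 and 4 in CV, 3 higher in FG and 0 lower in the top fraction. Causes were not tested. With 4 to 6 animals a group and values near 25 units for PC, PDK2, PDK3 and PDK4, small changes were not detectable. Leaving out LE of animal 3 or of animal 6 adjacent to FG papillae, chosen after seeing the data, left 9 and 10 members lower in FG taste buds.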
